A study of Mus musculus with 12 samples.

Results

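The 9 genes studied here make or repair the programmed DNA breaks of meiosis, and their RNA was followed across E14.5 gonads: *Spo11*, *Mei1* and *Prdm9* (break formation), *Dmc1*, *Psmc3ip*, *Rad51ap2* and *Brca2* (strand exchange), and *Msh4* and *Msh5* (crossover formation). They were chosen by name, as the array files give it, and are 9 of the 28867 gene names on the array and 14 of its 41174 probes. Of the 9, 8 passed the filter on dim probes and were tested together with all 18666 genes that passed. *Prdm9* did not. RNA from 1 pair of gonads per sample was hybridised to 12 single-colour Agilent arrays, 3 for each of 4 groups. All mice were on a mixed background and were exposed to tamoxifen at E9.5 and E10.5. The control testes were Smad4Flox/+ StellaMerCreMer Stra8+/-. Control ovary 1 had that genotype too, control ovary 2 was Smad4Flox/+ Stra8+/- and control ovary 3 Smad4Flox/Flox Stra8+/-, both without the Cre transgene. The *Smad4 (Stella)* ovaries were Smad4flox/floxMerCreMer Stra8+/- and the double mutant (DKO) ovaries Smad4flox/floxMerCreMer Stra8-/-, so that every control and every *Smad4 (Stella)* ovary carried 1 null allele of *Stra8*. Cre was driven in germ cells by the *Stella* element with variable activity, and no group lacked *Stra8* alone.

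In meiosis, SPO11 cuts both strands of the DNA, with MEI1 among the proteins it needs and PRDM9 marking where cuts are made. The ends are trimmed, and the recombinase DMC1, helped by BRCA2 and PSMC3IP (also called HOP2), searches the homologous chromosome. The MSH4-MSH5 pair then stabilises the joined molecules that can become crossovers. In mice these steps begin in the fetal ovary, while germ cells of the fetal testis do not enter meiosis until after birth.

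Each gene was read by 60-base probes, and 7 of the 14 probe sequences are printed, to give what the array measured for 6 of the members. Probes that may lie outside the coding part of a transcript are not printed, which leaves out *Mei1*, *Dmc1* and *Prdm9*. The sequences are given as in the array files, with mm9 positions. *Spo11* has a probe at chr2:172817551-172817610 (plus strand), *Rad51ap2* at chr12:11465566-11466171 (plus), *Msh4* at chr3:153523938-153526359 (minus) and *Brca2* at chr5:151325787-151325846 (plus). Of *Msh5*, probe A_51_P429865 lies at chr17:35165774-35166176 and probe A_52_P326240 at chr17:35181367-35182101, both on the minus strand. *Psmc3ip*, the member that moved least, has probe A_52_P238044 at chr11:100954219-100954278 (minus). For *Rad51ap2*, *Msh4* and both *Msh5* probes the interval is longer than the 60 bases of the probe, so the probe joins stretches that lie apart in the genome.
*Spo11*, A_52_P660477: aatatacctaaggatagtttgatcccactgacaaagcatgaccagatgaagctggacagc
*Rad51ap2*, A_52_P357948: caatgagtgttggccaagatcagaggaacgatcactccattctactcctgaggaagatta
*Msh4*, A_51_P288855: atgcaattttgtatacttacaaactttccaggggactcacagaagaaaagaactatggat
*Msh5*, A_51_P429865: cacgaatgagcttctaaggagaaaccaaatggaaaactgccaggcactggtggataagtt
*Msh5*, A_52_P326240: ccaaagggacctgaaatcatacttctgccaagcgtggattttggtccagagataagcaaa
*Brca2*, A_52_P513394: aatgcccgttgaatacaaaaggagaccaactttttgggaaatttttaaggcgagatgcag
*Psmc3ip*, A_52_P238044: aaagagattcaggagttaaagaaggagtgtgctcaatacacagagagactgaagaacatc

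Levels are log2 of the probe intensity minus log2 of the 75th percentile of that array, averaged over the probes of a gene, so that 0 is the 75th percentile and a step of 1 is 2-fold. Levels of different genes come from different probes and are not compared. Genes were called where the adjusted p from limma (Benjamini-Hochberg over all 18666 genes) was under 0.05 and the change at least 1.5-fold. In these bulk samples fewer germ cells and less RNA per germ cell cannot be told apart. The germ cell genes *Ddx4* and *Dazl*, expressed in fetal germ cells of both sexes, did not fall in DKO ovaries: their log2 fold changes against control ovaries were 0.14 and -0.08 (adjusted p = 0.562 and 0.736 from limma). In testes they were -0.57 and -1.62, and *Dazl* was called. The other 5 of the 7 germ cell markers tested (*Dnd1*, *Nanos3*, *Dppa3*, *Pou5f1* and *Kit*) rose in DKO ovaries, with a median log2 fold change over the 7 of 2.32. In testes 4 of the 7 (*Dnd1*, *Nanos3*, *Dppa3* and *Pou5f1*) were called higher than in control ovaries and 1 (*Dazl*) lower, with a median of 2.34. The paper reports that *Pou5f1* (Oct4) is lowered in germ cells of normal ovaries at E14.5. The level of such genes therefore does not measure the number of germ cells. The mean level of the 7 on an array was 1.99 to 2.45 in DKO ovaries, 1.82 to 2.38 in testes, 0.88 to 1.30 in the *Smad4 (Stella)* group and 0.13 to 1.09 in control ovaries, with the highest of these in control ovary 1. Of the 6 pregranulosa markers, genes of the supporting cells of the ovary, 0 were called in DKO ovaries, and their mean was 0.36 to 0.82 there and 0.19 to 0.64 in control ovaries. The mean of the 6 Sertoli cell markers stayed between -3.16 and -2.78 in all ovaries. Of the endothelial, macrophage, erythroid and mesonephros markers, 0 of 5, 1 of 5 (higher), 2 of 5 (lower) and 1 of 4 (higher) were called in DKO ovaries. Of the fetal Leydig cell markers, 0 of 4 were called there. In testes 4 of 4 fetal Leydig and 5 of 6 Sertoli cell markers were higher than in control ovaries, and 6 of 6 pregranulosa markers were lower. The part of these cell types in the results was not tested. *Stra8* was at 5.28 to 5.61 in DKO ovaries and 6.16 to 6.71 in control ovaries. Where its probe lies relative to the disrupted part of the gene was not given in the sources used here, so that this level does not check the null genotype.

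Of the members, 7 of the 8 tested were lower in DKO than in control ovaries and 0 were higher, against 7.94% of all genes called lower and 6.71% called higher. The fall ranged from 1.95-fold for *Brca2* to 35.3-fold for *Rad51ap2*, with *Psmc3ip* not called. The median log2 fold change of the 8 was -2.35, and that of all genes tested was 0.0035. In control testes, 7 of the 8 were again lower and 0 higher than in control ovaries, where 16.7% of all genes were called lower and 17.2% higher, and the median of the 8 was -3.31, against 0.02 over all genes. In *Smad4 (Stella)* ovaries 0 of the 8 were called in limma, against 0.145% of all genes called lower and 0.134% higher. All of these comparisons share the same 3 control ovaries.

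**Figure D1:**
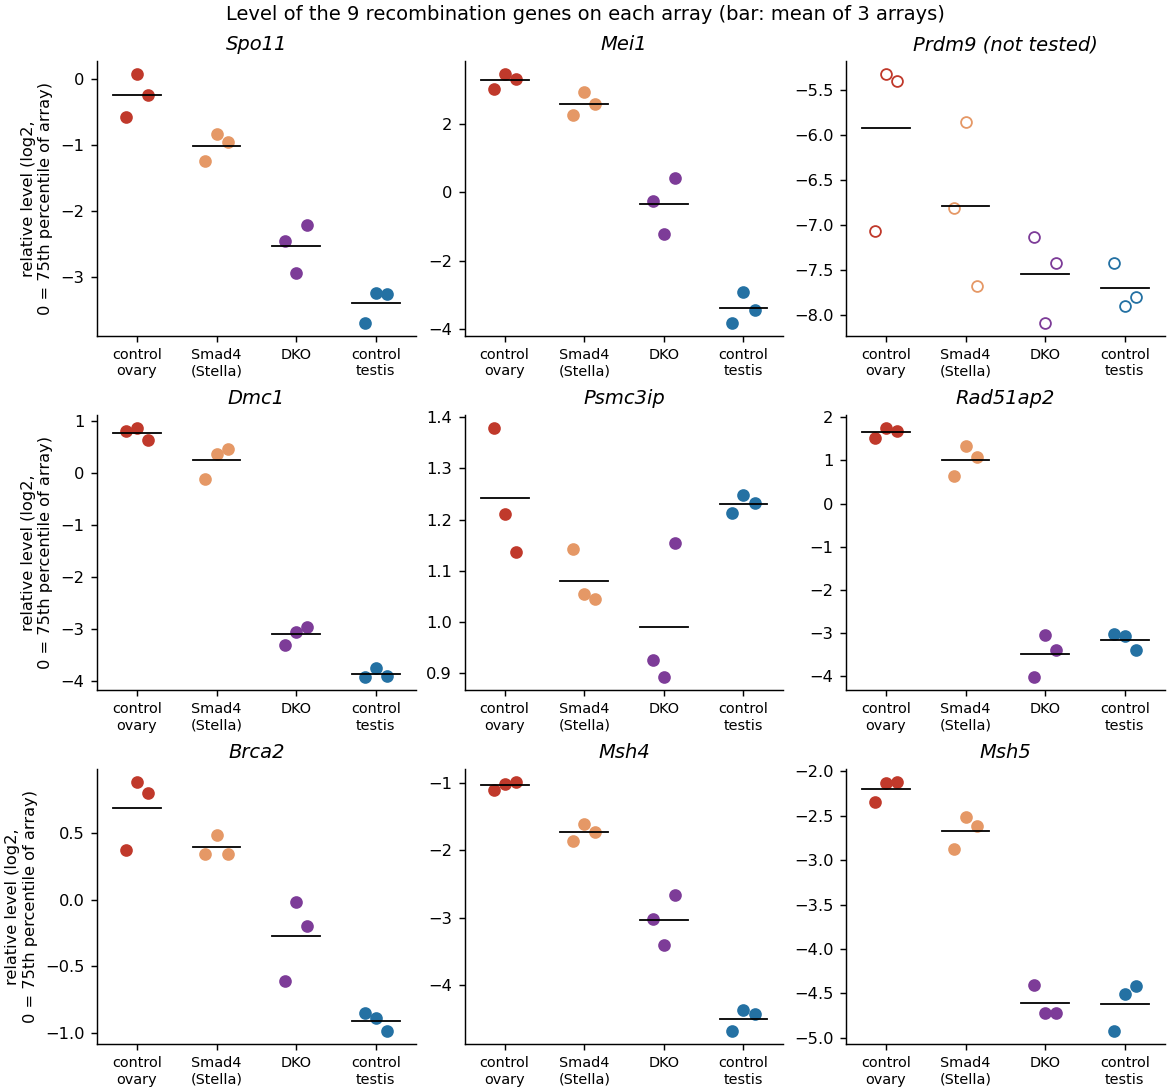
Relative level (log2, 0 is the 75th percentile of the array) of each gene on each of the 12 arrays, with a bar at the mean of the 3 arrays of a group. Except for *Psmc3ip* and the dim gene *Prdm9* (open points), the DKO ovaries lie below the control and *Smad4 (Stella)* ovaries in every panel.

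Among the break formation genes, *Spo11*, whose protein makes the cut, was at -0.57, 0.09 and -0.23 in control ovaries, -1.25, -0.83 and -0.95 in the *Smad4 (Stella)* group, -2.45, -2.94 and -2.21 in DKO ovaries and -3.70, -3.24 and -3.26 in testes. The 4 groups did not overlap and descended in that order. Against control ovaries it fell 4.90-fold in DKO ovaries (log2 fold change -2.29, SE 0.23, adjusted p = 8.76e-05 from limma) and 8.94-fold in testes (-3.16, SE 0.23, adjusted p = 2.04e-06 from limma). Its probes, which share no stretch longer than 7 bases, gave -2.20 and -2.38 for DKO against control ovaries. *Mei1*, a gene required for break formation, was at 3.01, 3.47 and 3.32 in control ovaries, 2.24, 2.94 and 2.58 in the *Smad4 (Stella)* group, -0.25, -1.23 and 0.43 in DKO ovaries and -3.83, -2.92 and -3.44 in testes. Again the groups did not overlap, and the DKO ovaries had the widest spread, an SD of 0.83 against 0.23 in control ovaries. *Mei1* fell 12.3-fold in DKO ovaries (log2 fold change -3.62, SE 0.38, adjusted p = 0.000121 from limma) and 102-fold in testes (-6.67, SE 0.38, adjusted p = 4.54e-07 from limma), the largest drop of any member between the control gonads. *Prdm9*, the histone methyltransferase that sets the sites of breaks, was well above background on 1 of 12 arrays, control ovary 2, at -5.32. Its 12 values lay between -8.10 and -5.32, too near background for a fold or a test.

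Of the strand exchange genes, *Dmc1*, the recombinase used only in meiosis, was at 0.81, 0.88 and 0.65 in control ovaries, -0.10, 0.37 and 0.47 in the *Smad4 (Stella)* group, -3.30, -3.06 and -2.95 in DKO ovaries and -3.92, -3.75 and -3.91 in testes. The DKO ovaries lay close to the testes and far from both other kinds of ovary. *Dmc1* fell 14.7-fold in DKO ovaries (log2 fold change -3.88, SE 0.16, adjusted p = 9.31e-07 from limma) and 24.9-fold in testes (-4.64, SE 0.16, adjusted p = 1.61e-08 from limma). *Rad51ap2* was at 1.53, 1.76 and 1.68 in control ovaries, 0.65, 1.32 and 1.08 in the *Smad4 (Stella)* group, -4.02, -3.04 and -3.39 in DKO ovaries and -3.02, -3.06 and -3.38 in testes. DKO ovaries and testes overlapped. The gene fell 35.3-fold in DKO ovaries (log2 fold change -5.14, SE 0.24, adjusted p = 1.59e-06 from limma), the largest fall of any member there, and 28.1-fold in testes (-4.81, SE 0.24, adjusted p = 2.15e-07 from limma).

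*Brca2*, which serves DNA repair in dividing cells as well as in meiosis, moved less. It was at 0.37, 0.89 and 0.80 in control ovaries, 0.34, 0.49 and 0.35 in the *Smad4 (Stella)* group, -0.61, -0.02 and -0.20 in DKO ovaries and -0.85, -0.89 and -0.99 in testes. Control and *Smad4 (Stella)* ovaries overlapped, and the DKO ovaries and testes lay below both. The gene fell 1.95-fold in DKO ovaries (log2 fold change -0.96, SE 0.17, adjusted p = 0.00232 from limma) and 3.02-fold in testes (-1.60, SE 0.17, adjusted p = 2.84e-05 from limma). On its own, the probe printed above gave -0.79 in DKO ovaries (adjusted p = 0.0533 from limma) and the other probe, A_51_P451106 at chr5:151372225-151372284, gave -1.13 (adjusted p = 0.00019). *Psmc3ip*, whose protein works with MND1 to promote DMC1 activity, was at 1.38, 1.21 and 1.14 in control ovaries, 1.14, 1.06 and 1.05 in the *Smad4 (Stella)* group, 0.93, 0.89 and 1.15 in DKO ovaries and 1.21, 1.25 and 1.23 in testes. Its 12 values lay between 0.89 and 1.38, and the control ovaries overlapped every other group, while both kinds of mutant ovary lay just below the testes. The log2 fold change was -0.25 in DKO ovaries (95% interval -0.47 to -0.03, adjusted p = 0.103 from limma) and -0.01 in testes (-0.23 to 0.21, adjusted p = 0.939 from limma). For *Mnd1*, its partner, looked up after the values of *Psmc3ip* were seen, the log2 fold changes were 0.22 and 0.57 (adjusted p = 0.509 and 0.0425 from limma), neither of them called.

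The crossover gene *Msh4* was at -1.11, -1.02 and -0.98 in control ovaries, -1.86, -1.61 and -1.73 in the *Smad4 (Stella)* group, -3.02, -3.41 and -2.66 in DKO ovaries and -4.68, -4.37 and -4.43 in testes. The 4 groups were clear of each other, in the same order as for *Spo11*. It fell 3.97-fold in DKO ovaries (log2 fold change -1.99, SE 0.17, adjusted p = 3.68e-05 from limma) and 11-fold in testes (-3.46, SE 0.17, adjusted p = 1.84e-07 from limma). *Msh5*, whose protein pairs with MSH4, was at -2.34, -2.13 and -2.12 in control ovaries, -2.87, -2.51 and -2.62 in the *Smad4 (Stella)* group, -4.40, -4.72 and -4.72 in DKO ovaries and -4.93, -4.50 and -4.41 in testes. The DKO ovaries and testes overlapped, and both means were -4.61. *Msh5* fell 5.34-fold in both (log2 fold change -2.42, SE 0.16 in each, adjusted p = 8.56e-06 and 1.24e-06 from limma).

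The 3 probes of *Msh5* differed in how far they fell. Probe A_51_P429865 was at -0.82, -0.47 and -1.08 in control ovaries, -2.07, -1.10 and -1.51 in the *Smad4 (Stella)* group, -5.01, -5.19 and -5.23 in DKO ovaries and -5.13, -4.84 and -4.54 in testes. Its log2 fold change in DKO ovaries was -4.36 (adjusted p = 4.29e-06 from limma). Probe A_52_P326240 fell by 1.92 on the log2 scale (adjusted p = 1.93e-05) and probe A_52_P297836, at chr17:35181516-35181575, gave -0.97 (adjusted p = 0.0733). That last position lies inside the interval of A_52_P326240, yet the pair shares no run longer than 5 bases, so it falls in the stretch that A_52_P326240 skips. It was the dimmest of the 3, well above background on 9 of 12 arrays, against 11 for A_51_P429865 and 12 for A_52_P326240. The gene value averages all 3 and is smaller than the fall of A_51_P429865 alone.

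**Figure D2:**
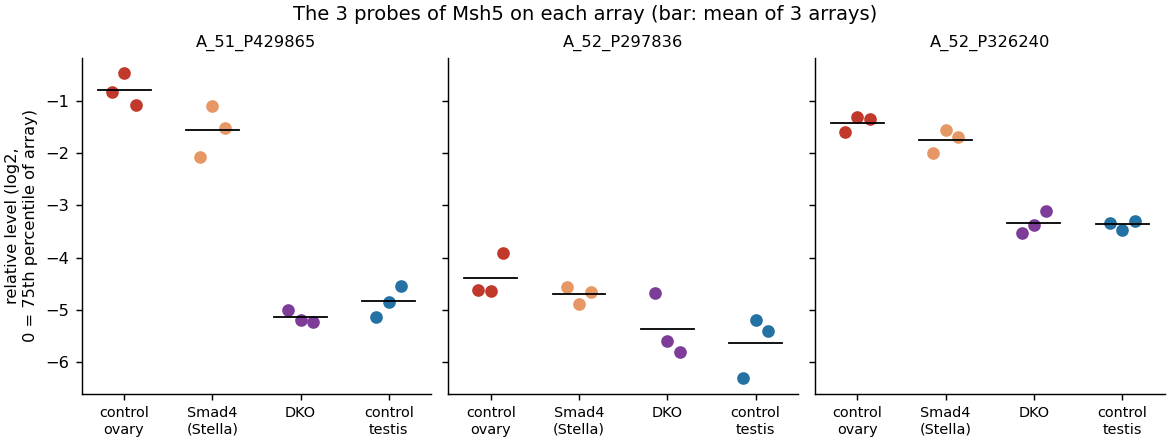
Relative level (log2, 0 is the 75th percentile of the array) of the 3 *Msh5* probes on each array, with bars at group means. The gap between control and DKO ovaries is 4.36 for A_51_P429865, 1.92 for A_52_P326240 and 0.97 for A_52_P297836, whose lowest control and highest DKO points, -4.63 and -4.67, almost meet.

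Slides could be compared in part. Control ovaries 2 and 3 shared slide 2 with DKO ovaries 1 and 2, and within it the 7 called members differed by -1.16 (*Brca2*) to -5.25 (*Rad51ap2*) on the log2 scale. The testes shared slide 1 with control ovary 1, where the 7 differed by -1.28 (*Brca2*) to -6.41 (*Mei1*). Control ovary 1 was the lowest control ovary for 6 of the 8 members. It was the only control ovary with the Cre transgene, the only one on slide 1 and the dimmest array (75th percentile 476). These cannot be told apart. Leaving out any 1 array, this one included, kept the count at 7 in both comparisons. Background correction with normexp, which adds an offset of 50 to each intensity, left 3 members called in DKO ovaries (*Mei1*, *Dmc1* and *Rad51ap2*) and 6 in testes, where *Msh5* was at -1.03 (adjusted p = 0.272 from limma). Under it *Spo11*, *Brca2*, *Msh4* and *Msh5* had log2 fold changes of -1.33, -0.54, -0.87 and -0.74 (adjusted p = 0.102, 0.101, 0.376 and 0.536 from limma). In the deposited table, not scaled between arrays, *Brca2* was not called in DKO ovaries either (-0.78, adjusted p = 0.292 from limma).

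**Figure D3:**
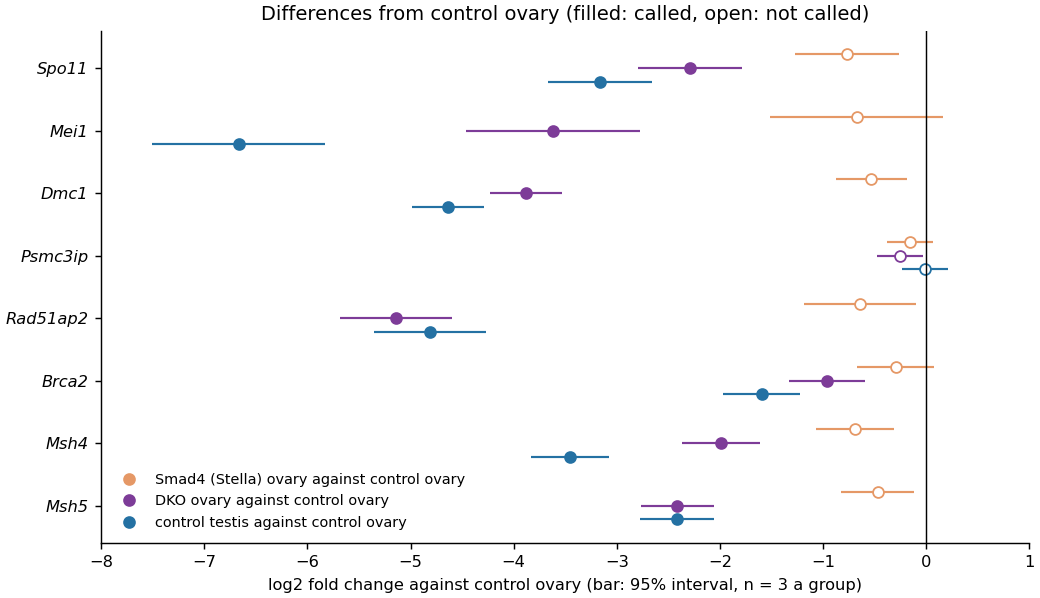
Log2 fold change of the 8 tested genes against control ovaries in *Smad4 (Stella)* ovaries, DKO ovaries and control testes, with 95% intervals, filled where called. Except for *Psmc3ip*, DKO ovaries and testes lie between -6.67 and -0.96, while *Smad4 (Stella)* ovaries lie between -0.77 and -0.30.

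In the *Smad4 (Stella)* group, labelled as *Smad4* single mutants and with 1 copy of *Stra8* left, 0 of the 8 members were called. *Smad4* RNA itself did not mark the genotype on these arrays: in RNA of the whole gonad it differed from control ovaries by -0.03 on the log2 scale here and by -0.13 in DKO ovaries (adjusted p = 0.910 and 0.563 from limma). With the 75th percentile scaling all 8 means were lower, by 0.16 (*Psmc3ip*) to 0.77 (*Spo11*) on the log2 scale, with a median log2 fold change of -0.59 against -0.02 over all genes. In 6 of the 8 (*Spo11*, *Mei1*, *Dmc1*, *Rad51ap2*, *Msh4* and *Msh5*) the 3 mutant values lay below the 3 control values, as they did for 15.6% of all genes. At an unadjusted p of 0.05, 5 of the 8 (the same but *Mei1*) passed in limma, where 11.3% of all genes passed in this direction. The methods' t-test passed 6 unadjusted, all lower, where it passed 10.2% of all genes in this direction, and 0 after Benjamini-Hochberg adjustment. *Msh4* had the smallest adjusted p, 0.0876 from limma, with a log2 fold change of -0.69 (95% interval -1.07 to -0.31). For *Rad51ap2* the interval was -1.18 to -0.10, for *Msh5* -0.83 to -0.12, for *Brca2* -0.67 to 0.08 and for *Psmc3ip* -0.38 to 0.06. No slide held both *Smad4 (Stella)* and control ovaries. In the deposited table, which is not scaled between arrays and in which the median gene shifted by 0.40, *Brca2* and *Psmc3ip* turned to 0.13 and 0.27, and *Spo11*, *Mei1*, *Rad51ap2*, *Dmc1* and *Msh5* were at -0.34, -0.25, -0.21, -0.11 and -0.04. With the slide as a block the 8 ran from -0.34 (*Psmc3ip*) to -1.97 (*Mei1*), with *Spo11* at -1.42 and *Msh4* at -1.29. That fit links these groups only through the DKO ovaries, of which DKO ovary 3 alone was on the slide of the *Smad4 (Stella)* ovaries. Its values therefore carry the level of that 1 array. The size of these differences thus moved with the scaling and with this block, and 0 of the 8 were called in either fit. A shift between the slides themselves cannot be told apart from the level of DKO ovary 3.

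The DKO and *Smad4 (Stella)* ovaries differ in the labels by *Stra8* alone, so that this comparison asks what the loss of *Stra8* adds. Of the 8 members, 7 were lower in DKO ovaries and 0 higher, against 4.02% of all genes called lower and 4.40% called higher. *Rad51ap2* was 22.6-fold lower (log2 fold change -4.50, SE 0.24, adjusted p = 9.2e-06 from limma), *Dmc1* 10.2-fold (-3.35, SE 0.16, adjusted p = 4.16e-06 from limma) and *Mei1* 7.68-fold (-2.94, SE 0.38, adjusted p = 0.00101 from limma). The falls of *Msh5*, *Spo11*, *Msh4* and *Brca2* were 3.85-fold, 2.88-fold, 2.46-fold and 1.59-fold. For *Psmc3ip* the difference was -0.09 (95% interval -0.31 to 0.13). On slide 3, which held DKO ovary 3 with all *Smad4 (Stella)* ovaries, the 7 differed by -0.59 (*Brca2*) to -4.40 (*Rad51ap2*). The call of *Brca2* (adjusted p = 0.0281 from limma) was lost without DKO ovary 1 (adjusted p = 0.0811) and without *Smad4 (Stella)* ovary 1, 2 or 3 (0.052, 0.112 and 0.0789). It was also lost with the slide as a block, where the estimate rests on DKO ovary 3 alone and repeats the slide 3 difference. With normexp *Mei1*, *Dmc1* and *Rad51ap2* were called, and *Spo11*, *Msh4* and *Msh5* were at -0.65, -0.41 and -0.37.

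DKO ovaries were also set directly against control testes, the gonad without meiosis at this stage. Of the 8 members, 5 were higher in DKO ovaries and 0 lower, where 12.7% of all genes were called higher and 13.1% lower. *Mei1* was 8.27-fold higher (log2 fold change 3.05, SE 0.38, adjusted p = 0.000151 from limma) and *Msh4* 2.77-fold (1.47, SE 0.17, adjusted p = 9.95e-05 from limma). *Spo11*, *Dmc1* and *Brca2* were 1.82-fold, 1.69-fold and 1.55-fold higher (adjusted p = 0.0127, 0.00359 and 0.0134 from limma). For *Rad51ap2* the difference was -0.33 (95% interval -0.87 to 0.21), for *Msh5* 0.00 (-0.35 to 0.36) and for *Psmc3ip* -0.24 (-0.46 to -0.02), none of them called. No slide held both groups, so that a fit with the slide as a block links them only through control ovary 1, the only control ovary on the slide of the testes. In that fit, as in the unscaled table, 2 of the 5 stayed called, *Mei1* and *Msh4*. With normexp these were *Mei1* and *Brca2*. Without control testis 1 *Spo11* was not called (adjusted p = 0.0502 from limma), and without DKO ovary 2 *Brca2* was under 1.5-fold.

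Expressed as a share of the log2 gap from control ovaries (0%) to control testes (100%), the 7 members that differ between these gonads spread out in DKO ovaries. Mean positions were 107% ± 10.4 for *Rad51ap2*, 99.97% ± 7.54 for *Msh5*, 83.6% ± 3.85 for *Dmc1*, 72.6% ± 11.8 for *Spo11*, 60.3% ± 19.0 for *Brca2*, 57.6% ± 10.8 for *Msh4* and 54.3% ± 12.5 for *Mei1* (SD, n = 3 ovaries). The 3 values of *Dmc1* lay above those of *Msh4* and *Mei1* and below those of *Rad51ap2* and *Msh5*, while *Spo11*, *Brca2*, *Msh4* and *Mei1* overlapped each other. In *Smad4 (Stella)* ovaries the mean positions ran from 10.1% ± 5.24 for *Mei1* to 24.3% ± 6.78 for *Spo11*. The positions were not tested, and they rest on the levels of the same 3 control ovaries and 3 testes. They were not computed with normexp. Under it *Msh5* differed less from control ovaries in DKO ovaries than in testes, and *Rad51ap2* was higher in DKO ovaries than in testes. For *Msh5* the level also includes the dim probe A_52_P297836, well above background on 1 of 3 testis and 2 of 3 DKO arrays.

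**Figure D4:**
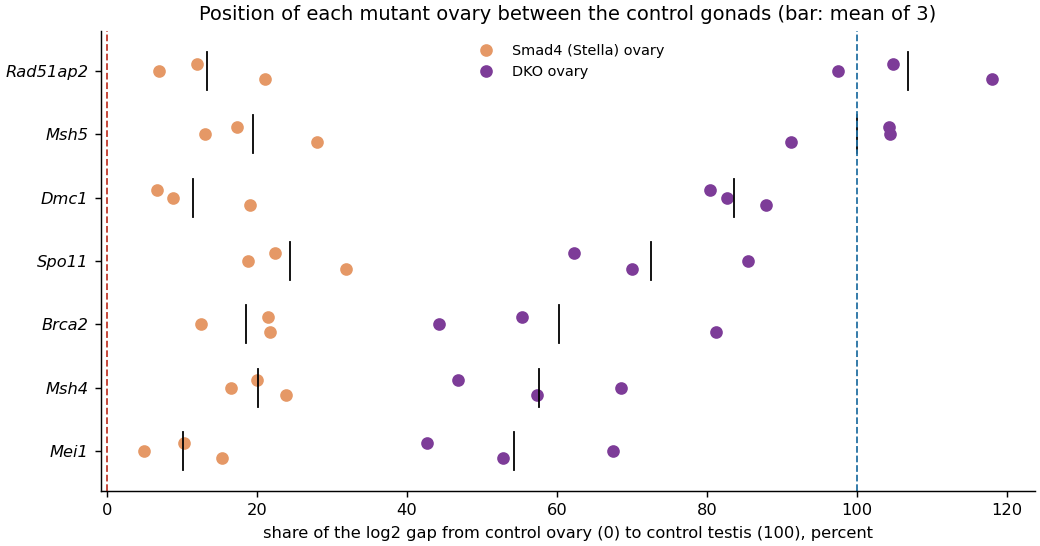
Position of each mutant ovary between the mean of control ovaries (dashed line at 0) and the mean of control testes (dashed line at 100), in percent of the log2 gap, for the 7 genes called between the control gonads, with bars at the mean of 3. *Smad4 (Stella)* ovaries lie between 4.86% and 31.9% and DKO ovaries between 42.6% and 118%.

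Other genes of the same steps were read from a list of 53 genes beyond the members, of which 47 were on the array and tested. In DKO ovaries 20 of the 47 were lower than in control ovaries and 0 higher, against 7.94% and 6.71% of all genes, with a median log2 fold change of -0.45. By the role given in the list, lower were 5 of 5 genes under break formation, 4 of 5 under strand exchange, 5 of 7 under crossover and 6 of 30 under general repair. The roles are broad: the genes under break formation were *Mei4*, *Rec114*, *Iho1*, *Zcwpw1* and *Mcmdc2*, and not all of them need act in making the breaks. In testes 23 of the 47 were lower and 2 higher, against 16.7% and 17.2% of all genes. In *Smad4 (Stella)* ovaries limma called 0, while 18 passed an unadjusted p of 0.05 with lower values, as 11.3% of all genes did. Between DKO and *Smad4 (Stella)* ovaries 11 were lower and 0 higher, against 4.02% and 4.40% of all genes. Against testes 7 (14.9%) were higher in DKO ovaries, near the 12.7% of all genes, and 2 were lower, against 13.1%.

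Listed under break formation was *Iho1*, which anchors the break machinery to chromosome axes. It fell 10.3-fold in DKO ovaries (log2 fold change -3.37, SE 0.15, adjusted p = 1.21e-06 from limma) and 21.1-fold in testes. Its levels were 1.64, 1.59 and 1.45 in control ovaries and -1.77, -1.79 and -1.88 in DKO ovaries, with 0.60, 1.22 and 1.03 in the *Smad4 (Stella)* group. *Zcwpw1*, a reader of the marks that PRDM9 writes, fell 3.60-fold in DKO ovaries, and *Mcmdc2*, which was not well above background on any DKO or testis array, was at least 1.62-fold and 1.83-fold higher in control ovaries than there (adjusted p = 0.00239 and 0.00199 from limma). *Meiob*, a single-strand DNA binding protein, fell 12.4-fold in DKO ovaries (log2 fold change -3.63, SE 0.17, adjusted p = 1.52e-06 from limma) and 64.1-fold in testes. *Hsf2bp* and *4930432K21Rik* (*Brme1*), which encode members of a meiotic complex with BRCA2, fell 3.10-fold and 3.0-fold in DKO ovaries. *Hsf2bp* was dim there, well above background on 2 of 3 DKO arrays. Of the crossover genes, *Cntd1* fell 4.0-fold, the helicase *Hfm1* 3.71-fold and *Ccnb1ip1* 2.81-fold in DKO ovaries.

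General repair genes, used in all dividing cells, moved less. *Mre11a*, which trims break ends, fell 1.96-fold in DKO ovaries (log2 fold change -0.97, SE 0.09, adjusted p = 6.55e-05 from limma) and the damage kinase *Atm* 1.92-fold (-0.94, SE 0.11, adjusted p = 0.000275 from limma). Higher in testes than in control ovaries were *Xrcc3*, a gene of recombination repair, by 2.29-fold (adjusted p = 7.31e-06 from limma) and *Rpa1*, a subunit of the single-strand binding complex RPA, by 1.51-fold (adjusted p = 0.0339 from limma). *Xrcc3* and the repair gene *Swi5* were the 2 genes lower in DKO ovaries than in testes, by 2.05-fold and 1.52-fold. A pair of other meiotic genes serve as a reference. *Sycp3*, a protein of the chromosome axis, fell by 1.81 on the log2 scale from control to DKO ovaries, and *Rec8*, the meiotic cohesin, was not called there (0.13, adjusted p = 0.814 from limma), while in testes their log2 fold changes were -3.63 and -3.72.

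**Figure D5:**
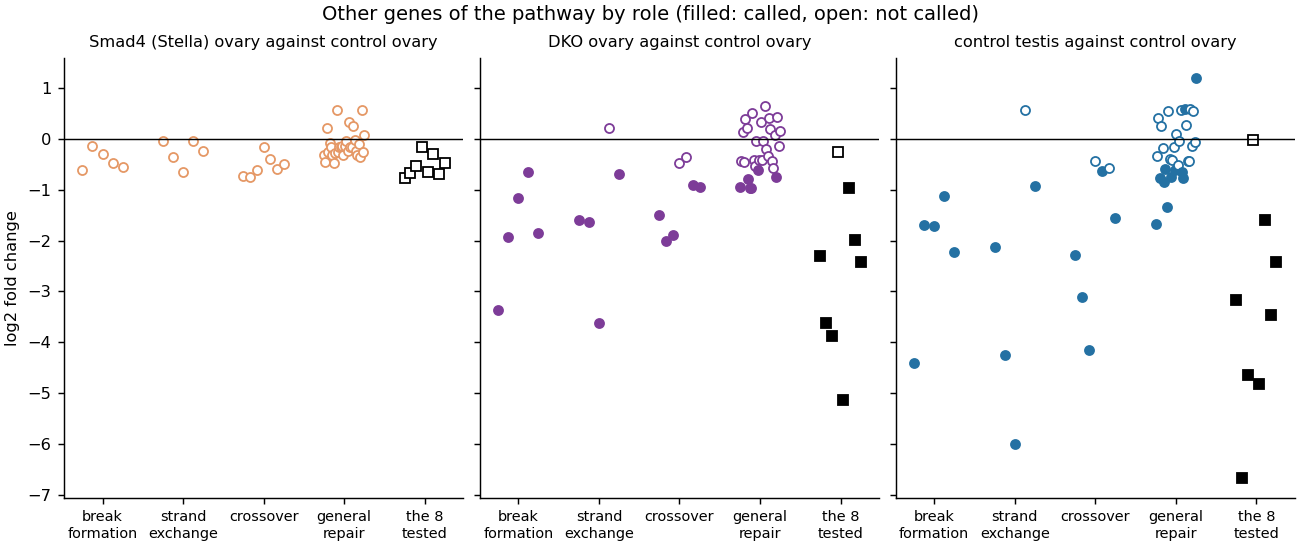
Log2 fold change against control ovaries of the 47 other pathway genes by role and of the 8 tested members (squares), filled where called. In the DKO panel 5 of 5 genes listed under break formation, 4 of 5 under strand exchange, 5 of 7 under crossover and 6 of 30 under general repair are filled, all below 0.

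Across arrays, 7 of the 8 tested members followed 1 pattern, which *Psmc3ip* did not share. Pearson's r between each gene and the mean of the 8 standardised levels over the 12 arrays was 0.931 to 0.988 for the 7 called members and 0.245 for *Psmc3ip*. These arrays form clusters by group and each member is part of the mean, so r only describes the shared pattern. Outside the members, the 5 genes most like that mean were *Sirt1* (r = 0.995), *Tc2n* (0.994), a transcript listed as ENSMUST00000130218 (0.993), AK050809 (0.992) and ENSMUST00000160005 (0.991). *Sirt1* was at 2.08, 2.10 and 1.97 in control ovaries, 1.71, 1.83 and 1.75 in the *Smad4 (Stella)* group, 1.05, 0.98 and 1.29 in DKO ovaries and on average 0.97 in testes.

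The promoters of the members were read for 6 short motifs. RefSeq windows of GRCm38.p6, from 250 bases before to 50 after a start site, were matched for 8 members (all but *Spo11*), in 9 windows with 2 for *Prdm9*. Of these, 6 belong to members that fell in DKO ovaries (*Mei1*, *Dmc1*, *Rad51ap2*, *Brca2*, *Msh4* and *Msh5*) and 3 to *Psmc3ip* and *Prdm9*. The E2F motif GCGGGA was present on either strand in 7 of the 9 windows, in 24 of 42 windows of the other pathway genes and in 19.98% of all 32851 windows. The 7 were 4 of the 6 windows of members that fell (*Dmc1*, *Rad51ap2*, *Brca2* and *Msh5*) and all 3 of *Psmc3ip* and *Prdm9*. As *Prdm9* was too dim for a test, these windows cannot show whether the motif sets apart the members that fell. The motif CNCCTCAG, bound by STRA8, was present in 2 of 9 (*Msh5* and *Prdm9*), in 3 of the 42 and in 7.94% of all windows. The retinoic acid receptor motif AGGTCA was found in 2 of 9 (*Mei1* and *Psmc3ip*) and 16.3% of all, the E-box CACGTG in 0 of 9 and 7.15%, the GC box GGCGCC in 1 of 9 (*Dmc1*) and 11.9%, and the SMAD box CAGAC in 7 of 9 and 49.6%. GC content differs between windows and was not matched: over the 250 bases before the start it was 43.6% (*Msh4*) to 68.8% (*Dmc1*) in the members and 52.4% in the median window. A match to letters is not a bound site.

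The 250 bases before the start are shown for *Dmc1* (chr15:79605110-79605359, minus strand) and *Rad51ap2* (chr12:11455805-11456054, plus strand), the members with the largest falls in DKO ovaries, and for *Msh5* (chr17:35046623-35046872, minus strand), which holds both motifs, all in GRCm38.p6 and read in the direction of the gene. Capitals mark GCGGGA or its complement TCCCGC and, in *Msh5*, also CTGAGGTG, a match to CNCCTCAG on the other strand that begins 82 bases before the start. In *Dmc1* and *Rad51ap2* a GCGGGA match begins 13 and 12 bases before the start.
*Dmc1*: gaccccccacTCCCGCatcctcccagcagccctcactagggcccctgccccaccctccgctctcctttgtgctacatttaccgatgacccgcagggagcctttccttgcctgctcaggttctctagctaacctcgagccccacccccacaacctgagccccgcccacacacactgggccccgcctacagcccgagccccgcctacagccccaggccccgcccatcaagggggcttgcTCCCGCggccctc
*Rad51ap2*: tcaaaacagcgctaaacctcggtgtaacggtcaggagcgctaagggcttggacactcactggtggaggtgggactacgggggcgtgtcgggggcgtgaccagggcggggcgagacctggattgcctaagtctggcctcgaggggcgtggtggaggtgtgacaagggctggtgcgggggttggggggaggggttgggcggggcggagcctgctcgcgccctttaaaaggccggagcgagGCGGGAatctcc
*Msh5*: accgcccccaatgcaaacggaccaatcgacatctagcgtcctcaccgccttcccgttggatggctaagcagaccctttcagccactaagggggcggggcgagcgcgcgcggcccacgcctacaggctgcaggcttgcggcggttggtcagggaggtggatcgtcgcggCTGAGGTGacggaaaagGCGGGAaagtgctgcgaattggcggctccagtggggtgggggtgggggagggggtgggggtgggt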

How the data were processed

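RNA was measured on 12 Agilent arrays of 1 design. The authors deposited the scanner output of Feature Extraction, whose processed intensity is corrected for background within an array and not scaled between arrays, and a table of the same intensity rounded to fewer digits. Spots marked as outliers were left out, log2 was taken, the 75th percentile over spots that are no controls was subtracted, spots of a probe and then probes of a gene were averaged, and a probe was kept if well above background on all arrays of at least 1 group (27311 of 41174 probes). Gene names of 31793 probes were matched to RefSeq. Intensity had a 75th percentile of 476 to 997, 58.8% to 70.5% of probes were well above background and 0 spots were saturated. The number of arrays limits the precision. Replicates were single gonad pairs. A single limma model (version 3.58.1, R 4.3.3) covered all 12 arrays. The same fit was also run on data simulated from the means and spreads of these arrays. Bounds ("at least") set the brighter mean against the lowest signal well above background. Named genes are the members, the 3 list genes per role with the largest called change, those called the opposite way, and the 5 most like the members. The members and lists were chosen with earlier results of these data known. Alternatives were quantile, unscaled and normexp values, the brightest probe, no filter, other thresholds, blocks, fewer groups, leaving out each array and the methods' t-test. Each probe alone was added after seeing the data.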

Additional observations from a re-analysis of the deposited data

How the results depend on the processing

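The counts of members and of other pathway genes called kept within 1.5 times under quantile normalization, the brightest probe and no filter on dim probes. With 1 array left out the counts of members were 7 to 7 (DKO against control ovaries), 0 to 0 (*Smad4 (Stella)*), 7 to 7 (testes), 6 to 7 (DKO against *Smad4 (Stella)*) and 4 to 5 (DKO against testes), and of the other 47 genes 17 to 23, 0 to 0, 23 to 29, 9 to 11 and 8 to 11. In DKO against control ovaries, normexp gave 3 members in place of 7, and the other genes went from 20 to 9 in the unscaled table, 11 with normexp, 10 at 2-fold and 11 by the methods' t-test after adjustment. In *Smad4 (Stella)* against control ovaries the methods' t-test without adjustment passed 6 members and 16 others in place of 0. In testes the others went from 25 to 15 (unscaled), 13 (normexp) and 15 (2-fold). In DKO against *Smad4 (Stella)* ovaries members went from 7 to 3 (normexp; adjusted t-test), and others from 11 to 7 (unscaled), 2 (normexp), 6 (slide as a block), 18 (t-test without adjustment) and 3 (adjusted t-test). In DKO against testes members went from 5 to 2 (unscaled, normexp, 2-fold, slide as a block) and 3 (adjusted t-test), and others from 9 to 2 (normexp), 19 (adjusted p only) and 20 (t-test without adjustment).

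Signs turned for small differences alone. *Psmc3ip* became 0.27 in *Smad4 (Stella)* ovaries and 0.057 in testes in the unscaled table, -0.064 to 0.057 in testes with 1 array left out (0.057 without control ovary 1), 0.14 in testes by probe A_52_P238044 alone and 0.074 in DKO against *Smad4 (Stella)* ovaries with the slide as a block. *Brca2* became 0.13 in *Smad4 (Stella)* ovaries in the unscaled table. In DKO ovaries against testes *Rad51ap2* became 0.35 with normexp, and *Msh5* became -0.17 with the slide as a block, -0.155 to 0.102 with 1 array left out (-0.155 without testis 1, -0.104 without DKO ovary 1) and -0.31 by probe A_51_P429865 alone. The cause was not tested. The median gene shifted by 0.19 (DKO) and 0.40 (*Smad4 (Stella)*) against control ovaries in the unscaled table, and by 0.26 in DKO with normexp. Same-numbered samples of different groups had correlations of -0.182 to 0.154 in their deviations from the group means, so the numbers do not pair them. With the replicate number as a block the members called stayed at 7, 0, 7, 7 and 5. Probes near background, such as that of *Prdm9*, give no measurable change here.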
